A study of Rattus norvegicus with 2 samples.

Results

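The genes described here are 8 genes of the red blood cell that do not encode haemoglobin chains: Alas2, Slc4a1, Ahsp, Epb42, Sptb, Ank1, Bpgm and Klf1. They were proposed by name, with earlier results of these data known, and were found by symbol among the entries of the table that carry a number-only NCBI gene ID, 8 of 16484 such IDs and 8 of 113011 features in all. RNA was sequenced from urine of Sprague Dawley rats, operated at 8 weeks of age (post natal day 56) and followed for 2 weeks. In the UUO (unilateral ureteral obstruction) group the right ureter was tied off, which leads to scarring of the kidney, and in the other group, labelled WT and described as sham, the same operation left the ureter open. Each group had 1 library, and how many rats contributed to it is not stated. Urine was drawn from the ureter of the operated side through a catheter in both groups. With 1 library per group there is no replicate check and no test, so each value describes these 2 libraries, and the spread between animals is unknown. The table names its conditions only by abbreviations, which were read as UUO and WT from the series title and from the column headings of the published urine lists, where the same values stand under UUO.

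Red blood cells are made from erythroblasts, which lose their nucleus to become reticulocytes and then mature in the blood. Reticulocytes still carry messenger RNA for haemoglobin, for haem synthesis and for the membrane skeleton, while mature red cells carry little. Of the 8 genes, Alas2, Ahsp and Klf1 are known as genes of the erythroid lineage. Epb42 is known chiefly from red cells. The other members are also used elsewhere. Slc4a1 has a shorter kidney form in the acid-secreting intercalated cells of the collecting duct, Sptb and Ank1 are found in muscle and brain, and Bpgm is made at lower levels in many tissues.

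All 8 genes were higher in UUO urine. A gene was called detected at FPKM (the fragments of a feature divided by its length and by the mapped total of its library) of at least 1, and changes are given as the difference of log2(FPKM + 1), UUO minus WT, a scale that understates the change of low genes. By these values 8 of 8 members were detected in UUO urine and 3 of 8 in WT urine, and 8 were 2-fold or more higher. Of the 9853 gene IDs detected in either library 25.7% were 2-fold higher and 36.5% were 2-fold lower. All 8 were also 4-fold or more higher on this scale, against 10.7% of the same gene IDs. The median difference of the 8 was 3.46, beside 0 for all number-only gene IDs and -0.51 for those detected in either library. Alas2, Slc4a1, Epb42, Ank1 and Klf1 entered the count only through their UUO value, so that for these 5 the direction was set by being detected at all. The counts are a description. Urine was spun before freezing and again after thawing, a step that can remove cells, and in such bulk RNA more material from a cell type and more RNA per cell cannot be told apart. An exact 0 in this table need not mean absence. Of 73 listed genes of ribosomal proteins, which every cell uses, 23 were at 0 in WT and 18 in UUO urine, while others reached FPKM 2418 and 3375. Over all 16484 number-only gene IDs, zeros were commoner in WT urine, with 8024 above 0 against 12008 in UUO urine. An FPKM of at least 1 was reached by 7793 in WT and 9278 in UUO urine, so the WT library held fewer low values. A gene is therefore said only to be listed at 0, also where Epb42, Ank1 and Klf1 are so listed in WT urine.

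**Figure D1:**
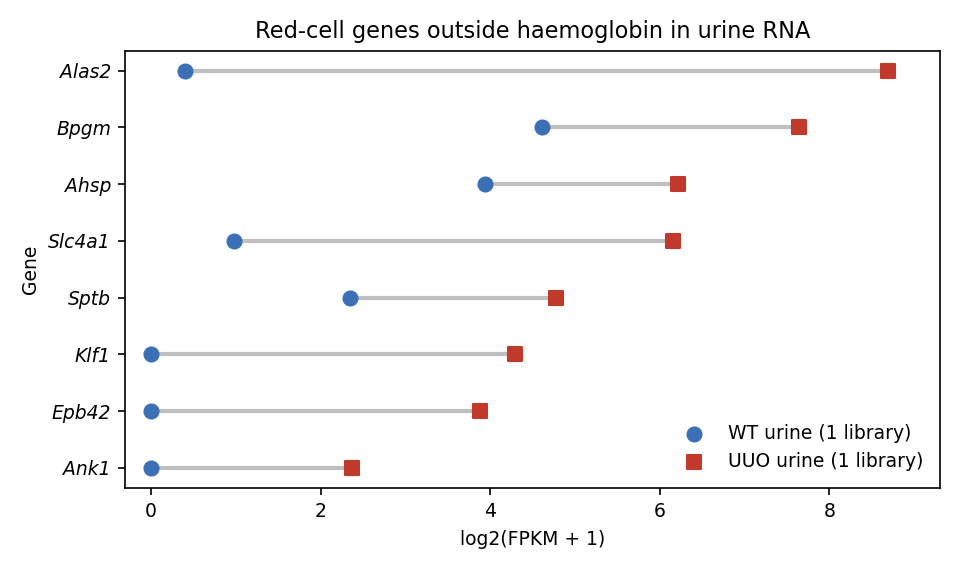
Value of each of the 8 red-cell genes in the WT library (blue circles) and the UUO library (red squares), as log2(FPKM + 1) on the horizontal axis, with genes ordered by their UUO value and 1 library per group. Every square lies to the right of its circle. Alas2 has the longest line, with a difference of 8.30, and Epb42, Ank1 and Klf1 start at 0.

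FPKM is scaled to length, so levels may be set side by side between genes. The order in UUO urine was Alas2, Bpgm, Ahsp, Slc4a1, Sptb, Klf1, Epb42 and Ank1, with FPKM from 414 down to 4.18. In WT urine it was Bpgm, Ahsp, Sptb, Slc4a1 and Alas2, from 23.3 down to 0.317, and the other 3 genes were listed at 0. The order therefore differed between the libraries mainly by Alas2, which stood at the top in UUO and lowest of those above 0 in WT urine. Ahsp and Slc4a1 were close in UUO urine, at 73.0 and 70.3, and without replicates it cannot be said which neighbours in the order differ. Alas2 and Bpgm together held 74.8% of the summed FPKM of the 8 genes in UUO urine, whereas Bpgm and Ahsp held 87.5% in WT urine. The sum was 818 in UUO and 43.1 in WT urine, 19.0 times apart. Those sums were 0.160% and 0.00547% of the FPKM of the whole library.

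**Figure D2:**
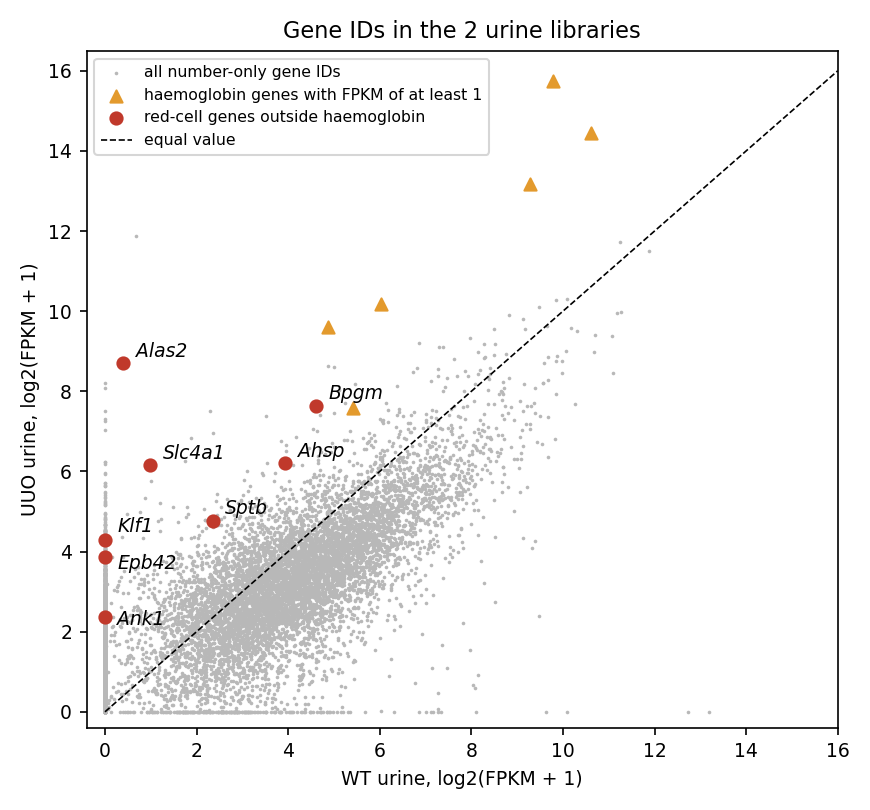
All number-only gene IDs by their value in WT urine (horizontal axis) and UUO urine (vertical axis), both as log2(FPKM + 1). Red circles are the 8 red-cell genes, orange triangles the 6 haemoglobin genes with FPKM of at least 1, and the dashed line marks equal values. All 8 red circles lie above the line, Epb42, Ank1 and Klf1 on the left edge because they were listed at 0 in WT urine.

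Alas2 encodes the erythroid form of aminolevulinate synthase, which carries out the committing step of haem synthesis in developing red cells. Alas2 (gene ID 25748, rn5 build as for all gene positions given here, chromosome X, 23587672 to 23605753) reached FPKM 414 in the UUO library against 0.317 in the WT library, a log2 difference of 8.30. It was number 42 of 12008 gene IDs above 0 in UUO urine and number 7940 of 8024 in WT urine. The WT value is what 1 fragment would give on a feature of about 1620 bp, so the level in WT urine probably rests on very few fragments and no ratio is given. The 2 other entries at its locus held little, and Alas2 made up 99.8% of the FPKM listed there in UUO urine.

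The housekeeping form of the same enzyme, Alas1, went the other way. Alas1 stood at FPKM 100.3 in the WT library and 18.0 in the UUO library, a log2 difference of -2.41, and stayed lower in UUO urine when the UUO values were rescaled to the WT library in 4 ways (equal sums, median ratio, 75th percentile, equal sums without haemoglobin), at -1.82 to -1.52. Within UUO urine Alas2 was 23.0 times the level of Alas1, a ratio into which the scaling of the libraries does not enter, while in WT urine Alas1 was far above the near-zero level of Alas2.

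The later enzymes of the pathway, which are needed in every cell that makes haem, stood on both sides. Of the 7 listed enzymes after it, 2 were 2-fold higher, 2 were 2-fold lower and 3 lay between, with a median log2 difference of 0.32. Urod, uroporphyrinogen decarboxylase, was 13.3 in WT and 106.9 in UUO urine, a difference of 2.92. Fech, ferrochelatase, which inserts the iron, was 9.66 and 26.7, a difference of 1.38. Alad, which forms porphobilinogen, was 148 and 25.8, a difference of -2.47, and Ppox was 25.4 and 9.52, a difference of -1.33. Uros had an FPKM of 6.52 and 8.37, and Cpox of 9.21 and 18.7. The difference of Urod was larger than those of Ahsp, Ank1 and Sptb. Under the 4 rescalings 3 or 4 of the 7 enzymes were higher and 1 was lower, with medians of 0.89 to 1.18.

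Genes that bring iron and precursors to the erythroblast showed no common direction. Of 10 listed genes 2 were 2-fold higher and 1 was 2-fold lower, and the median log2 difference was -0.26, which turned positive under the 4 rescalings, at 0.29 to 0.57. Slc25a37, the mitochondrial iron importer mitoferrin, was 13.0 in WT and 28.0 in UUO urine. Slc25a38, a mitochondrial glycine carrier, was 36.5 and 21.3, Abcb10 was 28.6 and 25.05, and the iron-sulphur protein Glrx5 was 110.5 and 59.5. The transferrin receptor Tfrc, chosen after its values were seen, was 4.05 and 3.03.

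Ahsp, the alpha-haemoglobin stabilising protein, binds free alpha chains before they pair with beta chains. Ahsp (gene ID 293522, chromosome 1, 206767225 to 206768199) reached FPKM 73.0 in the UUO library against 14.3 in the WT library, 5.09 times apart, and a log2 difference of 2.27, the smallest of the 8. It was number 359 in UUO and number 4185 in WT urine. The 2 other entries at its locus were at 0 in both libraries. Relative to the alpha chain gene Hba-a1, the level of Ahsp was 1 in 110.03 in WT and 1 in 307 in UUO urine.

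Reads of the haemoglobin genes can be split among their near-identical copies. Of 10 listed, 6 were detected, all 6 of them in both libraries and 2-fold higher in UUO urine. Hbb stood at FPKM 877 in the WT library and 54777 in the UUO library, Hba-a1 at 1576 and 22399, and Hba-a2 at 620.3 and 9167. The summed FPKM of the 8 other red-cell genes was 1.34% of that of the haemoglobin genes in WT and 0.925% in UUO urine. That share in UUO urine was 0.689 times the share in WT urine, while both sums were many times larger in UUO urine.

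Bpgm encodes bisphosphoglycerate mutase, which makes the 2,3-bisphosphoglycerate that lowers the oxygen affinity of haemoglobin. Bpgm (gene ID 296973, chromosome 4, 61650797 to 61679074) had the highest WT value of the 8, an FPKM of 23.3, and 199 in UUO urine. The values were 8.51 times apart, with a log2 difference of 3.04. It was number 94 in UUO and number 2939 in WT urine, and held 99.6% and 99.1% of the FPKM at its locus. Its glycolytic relative Pgam1 was 215 in WT and 106.02 in UUO urine, a difference of -1.01 that shrank to between -0.39 and -0.09 under the 4 rescalings. Bpgm was 1.87 times the level of Pgam1 within UUO urine and 0.108 times within WT urine.

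Other genes of red-cell metabolism and maturation were more often higher than lower. Leaving out Bpgm and Ahsp, 7 of 14 listed genes were 2-fold higher, 2 were 2-fold lower, 4 lay between and 1 was under FPKM 1 in both libraries, with a median log2 difference of 1.14. Among all gene IDs detected in either library 25.7% were 2-fold higher. Of the 7 higher genes, 5 were listed at 0 in WT urine, so their direction was set by being detected at all. Mkrn1, a ubiquitin ligase, was 22.4 in WT and 132 in UUO urine. Prdx2, the abundant peroxiredoxin of red cells, was 244 and 330, and Bnip3l, which clears mitochondria from reticulocytes and also acts in other cells, was 70.8 and 61.5. Cat, catalase, was 385 and 119, a difference of -1.68 that narrowed to between -1.06 and -0.75 under the 4 rescalings. Further genes were named after their values were seen. Alox15, the lipoxygenase of reticulocytes that is also made by some white cells, was listed at 0 in WT and at 74.7 in UUO urine. Trim58, Trim10 and Hemgn, which are known from erythroblasts, were also listed at 0 in WT, with 9.25, 9.66 and 10.5 in UUO urine. Pklr went the other way, from 33.9 in WT to 3.42 in UUO urine, a difference of -2.98. It stayed between -2.48 and -2.21 under the 4 rescalings. Car1, the carbonic anhydrase of red cells, was listed at 0 in both libraries.

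Slc4a1 encodes band 3, the chloride-bicarbonate exchanger that is the most abundant protein of the red-cell membrane and its anchor to the skeleton. Slc4a1 (gene ID 24779, chromosome 10, 90084733 to 90101181) reached FPKM 70.3 in the UUO library against 0.976 in the WT library, a log2 difference of 5.17. It was number 381 in UUO and number 7798 in WT urine, just under the detection limit there, and held 99.2% of the FPKM at its locus in UUO urine. The table has 1 value per gene, so the red-cell and the kidney form of the transcript were not separated. The exchanger Slc4a2, which is found in most epithelia, was 11.8 in the WT and 11.02 in the UUO library, and its log2 difference of -0.09 turned to 0.49 to 0.79 under the 4 rescalings. Slc4a1 was 6.38 times the level of Slc4a2 within UUO urine and 0.0828 times within WT urine. Slc4a3 was 0.755 and 2.03.

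Intercalated cells are the kidney cells that make Slc4a1, so their other genes are given beside it. Of 16 listed genes 4 were 2-fold higher in UUO urine, 4 were 2-fold lower and 8 were under FPKM 1 in both libraries. The median difference over all 16 was 0, a value set by genes listed at 0 in both libraries. Their summed FPKM came to 152 in the WT and 64.2 in the UUO library. The proton pump subunit Atp6v1b1 was 90.1 in WT and 30.7 in UUO urine, a difference of -1.52, and the subunit Atp6v0a4 was 2.34 and 8.18, a difference of 1.46. Atp6v1c2 was 21.6 and 0.671, and the carbonic anhydrase Car12 was 31.7 and 14.2. The other genes of this list past the 2-fold limit were named after their values were seen. Atp6v1g3, Rhcg and Rhbg were listed at 0 in WT and at 2.74, 1.45 and 2.65 in UUO urine. Slc26a4 was 5.47 in WT and 2.08 in UUO urine. Under the 4 rescalings 4 genes of the list were higher and 1 was lower. Slc4a1 stood at 2.29 times the level of Atp6v1b1 in UUO urine and at 0.0108 times in WT urine. What intercalated cells contributed to the Slc4a1 value was not tested.

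Ank1, Sptb and Epb42 build the skeleton under the membrane. Ankyrin, the product of Ank1, ties band 3 to spectrin, and Epb42, protein 4.2, steadies that link. Epb42 (gene ID 362202, chromosome 3, 119509169 to 119528195) had a listed value of 0 in the WT library and reached FPKM 13.7 in the UUO library, a log2 difference of 3.88, and was number 2808 there. It held 94.8% of the FPKM at its locus. Tgm2, the widely made transglutaminase to whose family protein 4.2 belongs, was 6.84 in the WT and 37.4 in the UUO library, so this relative was higher in UUO urine as well, with a difference of 2.29.

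Ank1 (gene ID 306570, chromosome 16, 73306252 to 73459914) was the lowest member in UUO urine, with an FPKM of 4.18, and was listed at 0 in WT urine. Its log2 difference was 2.37 and fell to 0.50 with a pseudocount of 10, under the 2-fold limit. It held 55.8% of the FPKM of the 10 entries at its locus in UUO urine, and the entries there summed to 7.48 in the UUO and 0.0215 in the WT library. Ank3, the ankyrin of epithelia and neurons, was 23.03 in WT and 10.8 in UUO urine, a difference of -1.03 as deposited and of -0.45 to -0.16 under the 4 rescalings. Ank1 reached 0.388 times the level of Ank3 in UUO urine.

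Sptb encodes the beta chain of red-cell spectrin. Sptb (gene ID 314251, chromosome 6, 108825814 to 109228039) reached FPKM 26.3 in the UUO library against 4.11 in the WT library, 6.401 times apart, a log2 difference of 2.42. This is the member whose direction depended on what was counted. The listed locus is a merged region of 402225 bp with 38 other entries, among them the genes Zbtb1 and Hspa2, lower in UUO urine, and Ppp1r36 and Churc1, higher there, and Sptb held 22.05% of its FPKM in UUO and 3.18% in WT urine. Over the whole region the summed FPKM came to 129 in the WT and 119 in the UUO library, a difference of -0.11. The entry with the most WT signal there was NONRATT046981, at FPKM 46.5 in the WT and 8.83 in the UUO library.

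Of the spectrins of other tissues, Sptbn1 was 105 in the WT and 87.1 in the UUO library and Sptan1 90.2 and 50.7, differences of -0.26 and -0.82 that turned positive under 4 and 3 of the 4 rescalings. Sptb was 0.302 times the level of Sptbn1 within UUO urine and 0.0392 times within WT urine.

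**Figure D3:**
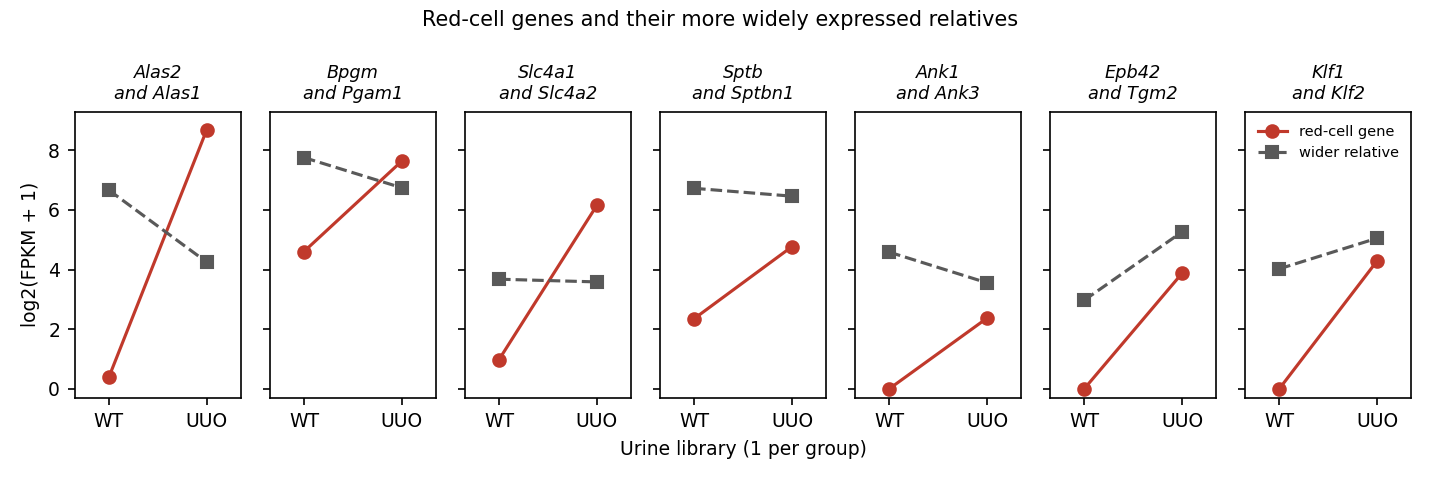
Value of 7 red-cell genes (red circles, solid lines) and of a more widely expressed relative of each (grey squares, dashed lines) in the WT and the UUO library, as log2(FPKM + 1), 1 library per group. Alas2, Bpgm and Slc4a1 lie below their relative in WT and above it in UUO urine, and the other 4 red-cell genes lie below it in both. Lines join the libraries and are no time course.

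The rest of the membrane and skeleton list lay mostly on the same side as the members. Leaving out Slc4a1, Ank1, Sptb and Epb42, 8 of 14 listed genes were 2-fold higher in UUO urine, 1 was 2-fold lower, 3 lay between and 2 were under FPKM 1 in both libraries, with a median log2 difference of 1.499. Among all gene IDs detected in either library 25.7% were 2-fold higher. Of the 8 higher genes, 6 were listed at 0 in WT urine and Add2 was under FPKM 1 there. For these the direction was set by being detected at all. Add2, the beta-adducin of red cells and brain, was 0.394 in WT and 29.4 in UUO urine, a difference of 4.45. Add1, the adducin chain that most cells make, was 153 and 38.2, a difference of -1.97 that stayed between -1.36 and -1.05 under the 4 rescalings. Dmtn was 11.5 and 6.78, and the mechanically gated channel Piezo1 was 10.2 and 9.88. Blood group genes were named after their values were seen. Rhd was listed at 0 in WT and at 24.5 in UUO urine, and Kel and Xk at 0 and at 8.83 and 3.42. Rhag, which the Rh complex needs, was listed at 0 and 0.634. Of 8 genes at 0 in WT and detected in UUO urine in this list, Epb42 and Ank1 are members. With Klf1, 3 of the 8 members were so placed, against 19.3% of the 9853 gene IDs detected in either library.

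Klf1 encodes the erythroid Krüppel-like factor, which binds CACCC boxes and switches on genes of haemoglobin, haem synthesis and the membrane. Klf1 (gene ID 304666, chromosome 19, 36992004 to 36995180) had a listed value of 0 in the WT library and reached FPKM 18.6 in the UUO library, a log2 difference of 4.29. It was number 2026 in UUO urine and held 91.8% of the FPKM at its locus. Of the wider Krüppel-like factors, Klf2 was 15.3 in WT and 32.2 in UUO urine, Klf6 was 33.0 and 49.2, Klf3 was 30.5 and 3.95, and Klf4 was 9.49 and 2.32. Klf1 stood at 0.578 times the level of Klf2 and 0.378 times that of Klf6 in UUO urine.

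The partners of Klf1 in the erythroid programme were split. Leaving out Klf1, 3 of 11 listed regulators were 2-fold higher in UUO urine, 5 were 2-fold lower and 3 were under FPKM 1 in both libraries. The median over all 11 was 0, a value set by genes listed at 0 in both libraries. Gata1, the master regulator of the lineage, and the erythropoietin receptor Epor were listed at 0 in both libraries, and both were named after their values were seen. Lyl1 was 9.23 in the WT and 37.9 in the UUO library, and Nfe2, which is shared with platelet precursors and was likewise named later, was listed at 0 and 13.3. Lmo2, which endothelial cells also make, was 68.6 and 13.8, Zfpm1 was 24.1 and 8.69, and Ldb1 was 26.2 and 9.24. Under each of the 4 rescalings 3 regulators were 2-fold higher and 3 were 2-fold lower.

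GATA1 binds GATA motifs and KLF1 binds CACCC boxes, so the bases before the start of the members are shown for these letters. A window of 250 bases before and 50 after a start was found for 5 of the 8 members in the RefSeq table of the GRCr8 assembly, which holds 33469 such windows. The Alas2 window starts 4800 bases inside the gene and the Bpgm window 468, so neither is shown, and the Sptb window starts 111 bases inside. The 250 bases before the start are printed 5′ to 3′ on the strand of the gene. Klf1 (minus strand, chr19:40158652-40158901) and Sptb (minus strand, chr6:101170279-101170528) hold the letters of both GATAA and CACCC. Epb42 (minus strand, chr3:128451684-128451933) holds neither of these. Capitals mark GATAA and CACCC or their reverse complements, TTATC and GGGTG. Other spellings of a GATA motif were not searched, such as AGATAG, which stands unmarked in the Epb42 bases and, as CTATCT, in the Sptb bases.
Klf1: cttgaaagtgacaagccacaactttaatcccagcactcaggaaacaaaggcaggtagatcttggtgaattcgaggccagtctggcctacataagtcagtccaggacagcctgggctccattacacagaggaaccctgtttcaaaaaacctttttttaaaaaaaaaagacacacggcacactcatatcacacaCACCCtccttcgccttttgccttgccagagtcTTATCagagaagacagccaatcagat
Sptb: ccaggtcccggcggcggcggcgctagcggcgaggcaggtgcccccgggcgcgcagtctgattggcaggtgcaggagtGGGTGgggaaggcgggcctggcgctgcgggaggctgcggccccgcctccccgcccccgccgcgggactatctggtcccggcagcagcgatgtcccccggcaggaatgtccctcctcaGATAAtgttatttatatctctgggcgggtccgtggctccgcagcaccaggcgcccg
Epb42: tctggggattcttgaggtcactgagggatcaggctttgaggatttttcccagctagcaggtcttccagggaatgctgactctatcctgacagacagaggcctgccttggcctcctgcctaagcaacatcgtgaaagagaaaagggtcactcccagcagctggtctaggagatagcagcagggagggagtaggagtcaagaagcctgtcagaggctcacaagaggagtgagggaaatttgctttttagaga

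In Klf1 the letters TTATC lay 26 bases and CACCC 58 bases before the start. In Sptb AGATAA, which contains GATAA, lay 57 bases and GGGTG 173 bases before it. Over the full windows, searched on both strands, GATAA was held by 3 of 5 members and 26.5% of all windows, and AGATAA by 2 of 5 and 11.6%. CACCC was held by 3 of 5 and 54.9%, in Bpgm only after the start, and the longer CCACACCC by 0 of 5 and 3.22%. Among the 3 printed genes alone, GATAA was held by 2, AGATAA by 1, CACCC by 2 and CCACACCC by 0. Letters of this length are common, and a match describes the window only.

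**Figure D4:**
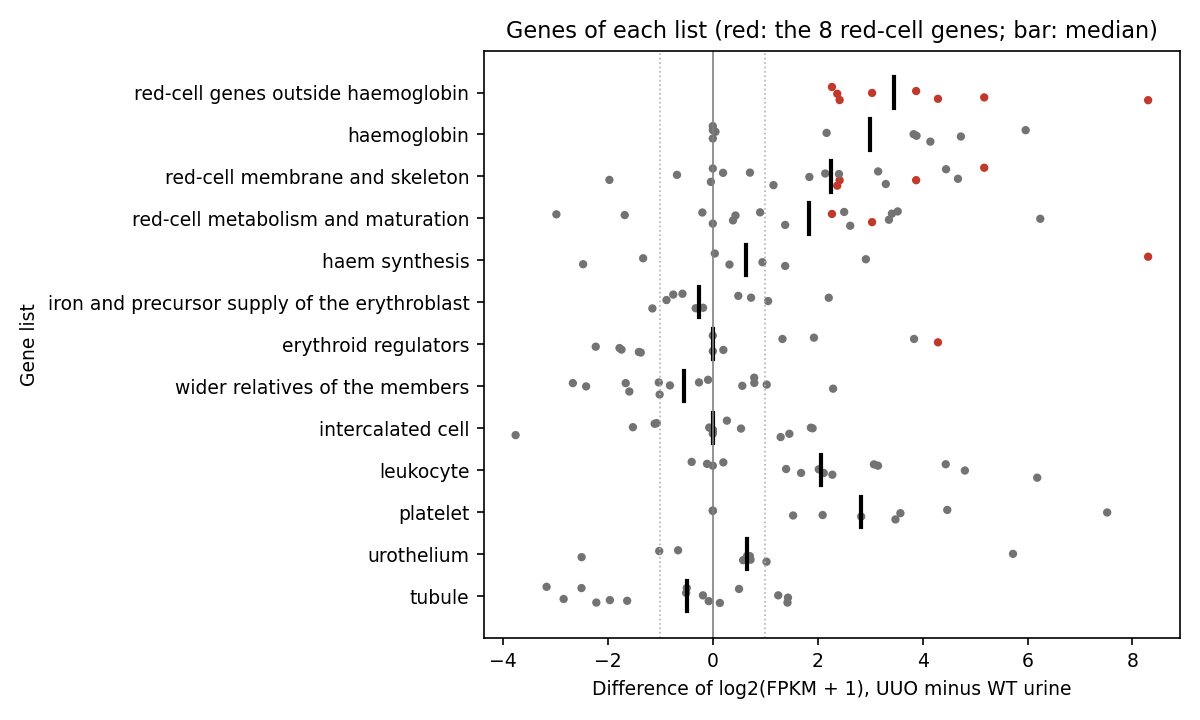
Difference of log2(FPKM + 1), UUO minus WT urine, for every listed gene of each gene list (points) with the median of the list (black bars). The medians count undetected genes and genes listed at 0 in WT urine. Red points are the 8 red-cell genes wherever a list holds them, the solid line marks 0 and the dotted lines mark 2-fold. With a pseudocount of 1, medians lie above the 2-fold line for the 8 genes, haemoglobin, membrane and skeleton, metabolism and maturation, leukocytes and platelets, and at or below 0 for iron supply, regulators, wider relatives, intercalated cells and tubule.

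Most listed genes of other blood cells stood higher in UUO urine too. Of 9 listed platelet genes 9 were at 0 in WT and 7 were detected in UUO urine, led by Pf4 with an FPKM of 182, Gp1bb with 21.1 and Clec1b with 10.9. Of 14 listed leukocyte genes 10 were 2-fold higher and 0 lower, with 11 at 0 in WT urine. For the 7 platelet genes and 9 of the 10 leukocyte genes, listed at 0 in WT urine, the direction was set by being detected at all. Among all gene IDs detected in either library 25.7% were 2-fold higher, and 19.3% were at 0 in WT and detected in UUO urine. S100a9 was listed at 0 and 71.7, S100a8 at 0 and 27.0, Lyz2 was 7.55 and 26.5, Cd74 was 70.0 and 64.8, and Cd14 was 2.05 and 1.31. The summed FPKM of the leukocyte list was 79.6 in the WT and 239 in the UUO library, and that of the platelet list was 0 and 236. What these cells contributed to the member values was not tested.

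Genes of the urinary tract were present in both libraries. Of 9 listed urothelium genes 8 passed detection in the WT and 9 in the UUO library, with summed FPKM of 1838 and 1966. Upk1a was 169.5 in WT and 277 in UUO urine, Upk3a was 312 and 466, Krt7 was 368 and 579, and Psca was 557 and 97.6. Of 15 tubule genes 15 passed detection in the WT and 13 in the UUO library, with 3 higher, 6 lower and a median difference of -0.50. Lrp2 was 38.7 and 5.995, Aqp2 was 50.2 and 35.02, Aqp3 was 85.1 and 121, and Calb1 was 12.6 and 35.6. The urothelium list had 2 genes higher, 2 lower and a median of 0.65 as deposited, and 6 higher, 1 lower and a median of 1.28 to 1.59 under the 4 rescalings.

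By distance on the log2(FPKM + 1) scale over the 2 libraries, the 3 protein-coding genes nearest to Alas2 among 15926 were Ccl3 at 0.63, Junb at 0.74 and Pf4 at 1.24, which were listed at 0 in WT and at 294, 268 and 182 in UUO urine. Those nearest to Bpgm were Glrx at 0.14, S100a4 at 0.24 and Rpl13 at 0.44. Glrx was 22.5 in WT and 182 in UUO urine. With only 2 values per gene such nearness is a weak description.

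Each of the 4 rescalings multiplied UUO values by a factor between 1.54 and 1.91. The 8 members, already higher as deposited, could therefore only move further up, which is no check on their direction. The median difference of gene IDs detected in either library moved from -0.51 as deposited to between 0.15 and 0.51 under the 4 rescalings, and the share of higher genes among those changed 2-fold from 41.3% to between 62.7% and 73.2%. The median of the 8 members went over the same settings from 3.46 to between 4.06 and 4.36, and the lowest member was at 2.89 or more. As the steps in the FPKM values show, 1 fragment on a feature of 2000 bp corresponded to FPKM 0.253 in the WT and 0.225 in the UUO library. For a feature of that length 3 fragments would be an FPKM of 0.759 in WT urine, above the value of Alas2 there and below that of Slc4a1.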

How the data were processed

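Urine RNA of 1 WT and 1 UUO library was sequenced. Per the labels, the submitters' processing notes name Bowtie2 2.0.6, TopHat2 2.0.9, Cufflinks 2.1.1, Cuffdiff 2.1.1 and the build rn5, to which locus coordinates refer. The study's methods describe ribosomal RNA removal and strand-specific libraries for kidney RNA. The authors deposited 1 FPKM value per feature and library. Their columns of log2 ratios, test statistics, p-values and q-values were not used. Of 113011 features, 106827 (94.5%) share a listed locus, so the FPKM of overlapping entries is uncertain.

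Differences were computed with Python 3.11.15 and pandas 2.3.3 as log2(FPKM + 1), with detection at FPKM of at least 1 and a 2-fold limit. Symbols came from RefSeq (GRCr8), which matched 16329 number-only IDs (99.1%). The genes of a list that the table did not hold under such an ID were not analysed here. Fragment steps were fitted on assembled features alone at their locus, of 400 to 1200 bp. Whole numbers within 0.1 were reached by 99.2% of 129 WT and 99.7% of 3474 UUO values below 30 fragments, at normalising totals of 2112000 and 2432000 fragments. What these totals include is not given in the sources used here, and such steps cover counting error only. The scripts were tested on simulated data.

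The members and gene lists were chosen with earlier results of these data known. Named are all members, all genes of haem synthesis, the detected wider relatives, of each other list genes among the 3 highest in each library, and the 3 genes nearest to Alas2 and to Bpgm; the text says where a gene was named after its values were seen. A few genes of these lists are counted but not reported here by name. Alternatives were other pseudocounts, detection and fold limits, 4 rescalings of UUO values (equal sums of all features, the median ratio, the 75th percentile, and equal sums of gene IDs without haemoglobin) and sums over loci.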

Additional observations from a re-analysis of the deposited data

How the results depend on the processing

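No paired analysis was possible because the labels give only 1 library for WT and 1 for UUO. With locus sums left out, 71 of 72 recomputed member differences kept their side of the 2-fold limit, Ank1 at 0.50 with a pseudocount of 10 being the exception. All 72 stayed positive, but this was fixed in advance. Pseudocounts and limits cannot turn a sign, and each rescaling raised UUO values. The count of higher members was 7 with a pseudocount of 10 and 7 with locus sums, where Sptb reversed to -0.11. It was also 7 with detection at 5, where Ank1 was not detected. The members' median ranged from 1.64 with a pseudocount of 10 to 5.73 with a pseudocount of 0.1. It was 3.15 without Alas2 and Bpgm, an alternative chosen after seeing the data. When any FPKM above 0 counted, 5 members were detected in WT urine. With detection at 5, 7 were detected in UUO and 2 in WT urine. Counts of gene IDs moved more. Higher gene IDs, 2534 as reported, numbered 370 with a pseudocount of 10, 1041 with detection at 5, 1059 at a 4-fold limit, 4338 by the median ratio, 4057 by the 75th percentile and 4124 by equal sums without haemoglobin. Lower gene IDs, 3600 as reported, numbered 1770 with a pseudocount of 10, 1185 at a 4-fold limit, 2157 by equal sums, 1587 by the median ratio, 1758 by the 75th percentile and 1699 by equal sums without haemoglobin. In the same order of the 4 rescalings (equal sums, median ratio, 75th percentile, without haemoglobin), the medians that reversed were 0.29, 0.57, 0.49 and 0.52 for iron and precursor supply, 0.10, 0.41, 0.31 and 0.34 for tubule, and 0.078, 0.38, 0.29 and 0.32 for the wider relatives. With a pseudocount of 10 the medians of 4 lists fell under the 2-fold limit, to 0.46 for membrane and skeleton, 0.85 for metabolism and maturation, 0.44 for leukocytes and 0.69 for platelets. Under the 4 rescalings those of urothelium (1.28 to 1.59) and of haem synthesis with Alas2 (1.22 to 1.51) passed it. Each rescaling multiplies UUO values by 1 factor, which raises such medians. Fragments per member were not counted here, which limits what a value of 0 can show.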
